A study of Mus musculus with 6 samples.

Results

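Mast cells are resident immune cells of connective tissue that store preformed proteases and histamine in granules and release them when immunoglobulin E on their surface is crosslinked. In mice they fall into a connective tissue type, which makes the chymases Mcpt4 and Cma1 together with tryptase and carboxypeptidase A3, and a mucosal type, which makes Mcpt1 and Mcpt2. They develop under Kit ligand, which signals through the receptor Kit, and they are known residents of white fat, where they lie along vessels. The 8 genes described here were taken by name from the 36144 rows of the deposited table and cover the granule proteases (Mcpt4, Cma1, Tpsb2, Cpa3), the histamine-forming enzyme (Hdc), the high-affinity immunoglobulin E receptor (Fcer1a, Ms4a2) and the growth factor receptor (Kit). All 8 were found, each on 1 row.

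Poly-A RNA of mouse subcutaneous white adipose tissue was sequenced in 6 libraries, 3 titled Tumor and 3 titled WT, numbered as biological replicates 1 to 3. The labels describe these groups in conflicting ways. The libraries titled Tumor carry the genotype MSRA full-body KO and those titled WT the genotype MSRA WT, all 6 carry the treatment orthotopic transplant, and the design text has pancreatic ductal adenocarcinoma cells transplanted into both genotypes with fat collected 4 to 5 weeks later. The series title instead contrasts tumour-bearing mice with controls that bore none. No label names strain, sex, age or a batch. Msra, methionine sulfoxide reductase A, which the genotype label calls knocked out, stood at 52.9, 40.0 and 26.9 TPM in libraries labelled Tumor and at 51.1, 59.1 and 56.3 TPM in those labelled WT, so its transcript was not lost, although a total over the gene says nothing of single exons. Every direction here is drawn from the titles. TPM are shares of all transcripts, corrected for transcript length and scaled to the same total, so the depth of each library is unknown. The libraries held 13077 to 14253 genes at 1 TPM or more. In 4 of them Cd79a of B cells ranged from 235 to 712 TPM and in the other 2, Tumor replicate 1 and WT replicate 3, it was 1.71 and 0.775 TPM. That division crosses the groups, and in bulk tissue fewer cells of a type and less RNA per cell cannot be told apart.

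The windows around the transcription starts of Mcpt4, Cma1, Cpa3 and Hdc are shown as a description, and their part in the levels across libraries was not tested. RefSeq promoter windows on GRCm38.p6, which run from 250 bases before the start to 50 after it, were found for 7 of the 8 genes, all but Tpsb2. Mcpt4 (chr14:56062261-56062560), Cma1 (chr14:55944626-55944925), Cpa3 (chr3:20242132-20242431) and Hdc (chr2:126618629-126618928) are all read on the minus strand and are printed 5′ to 3′ along the gene. Capitals mark each match to a GATA word (AGATAA, or the same with T as its first or G as its last letter), an E-box word (either CACATG or its palindromic relative CACGTG) or TATAAA, searched on both strands, with no match overlapping another.
Mcpt4: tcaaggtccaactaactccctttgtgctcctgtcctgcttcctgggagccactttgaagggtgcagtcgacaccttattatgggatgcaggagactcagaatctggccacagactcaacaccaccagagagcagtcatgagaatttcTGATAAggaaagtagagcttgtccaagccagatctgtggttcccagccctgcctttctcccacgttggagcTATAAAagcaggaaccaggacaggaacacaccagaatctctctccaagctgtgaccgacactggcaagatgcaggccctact
Cma1: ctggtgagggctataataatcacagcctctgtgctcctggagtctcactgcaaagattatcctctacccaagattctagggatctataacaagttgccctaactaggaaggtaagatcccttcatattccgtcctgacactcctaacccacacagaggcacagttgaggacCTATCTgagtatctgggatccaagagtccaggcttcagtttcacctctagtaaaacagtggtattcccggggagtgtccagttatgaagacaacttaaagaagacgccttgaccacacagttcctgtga
Cpa3: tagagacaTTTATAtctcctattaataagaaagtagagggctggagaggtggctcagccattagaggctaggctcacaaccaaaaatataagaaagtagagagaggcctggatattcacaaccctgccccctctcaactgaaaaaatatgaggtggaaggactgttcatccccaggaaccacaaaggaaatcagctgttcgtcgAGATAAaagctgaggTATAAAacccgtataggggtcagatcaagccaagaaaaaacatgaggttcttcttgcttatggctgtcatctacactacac
Hdc: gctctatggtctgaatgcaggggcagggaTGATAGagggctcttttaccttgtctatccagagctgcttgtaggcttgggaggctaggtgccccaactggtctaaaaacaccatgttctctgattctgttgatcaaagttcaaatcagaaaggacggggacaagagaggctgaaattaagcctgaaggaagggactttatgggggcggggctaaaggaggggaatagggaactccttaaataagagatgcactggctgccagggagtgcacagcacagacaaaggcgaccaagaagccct

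GATA words are the core of sites read by GATA factors such as Gata2, which mast cells need, and E-box words of this kind are read by Mitf, another mast cell factor. Counted from the transcription start, the GATA word began at -103 in the Mcpt4 window, at -79 in that of Cma1 on the opposite strand, at -46 in that of Cpa3 and at -221 in that of Hdc. Unlike the windows of Mcpt4, Cma1 and Cpa3, that of Hdc lies wholly inside the GENCODE M21 span of its gene (126593667 to 126619299). The RefSeq start used for Hdc is thus not the outer end of that span. TATAAA began at -32 in Mcpt4 and at -31 in Cpa3, and Cpa3 held another on the opposite strand at -242. Of the 7 genes with a window, 6 held a GATA word, Kit being the exception, 3 held TATAAA and 1, Fcer1a, held an E-box word. Over all 32851 windows of the table, 29.8% held a GATA word, 13.6% TATAAA and 20.4% an E-box word. A match of letters is a description and does not show that a factor binds there.

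Mcpt4, Cma1, Tpsb2 and Cpa3 made up most of the mast cell signal. Mcpt4, the main connective tissue chymase of mice (chromosome 14, 56059629 to 56062313, GENCODE M21), stood at 60.2, 41.0 and 29.4 TPM in libraries labelled Tumor and at 41.8, 86.5 and 47.7 TPM in those labelled WT. WT replicate 2 was highest and Tumor replicate 3 lowest, and the groups overlapped. Cma1, mast cell protease 5, which is encoded in the same chymase locus (chromosome 14, 55941451 to 55944675), stood at 48.5, 26.4 and 14.4 TPM in libraries labelled Tumor and at 27.2, 49.4 and 35.2 TPM in those labelled WT. Here WT replicate 2 and Tumor replicate 1 were nearly level at the top, and Tumor replicate 3 was again lowest.

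Tpsb2, the tetramer-forming mast cell tryptase also called mast cell protease 6 (chromosome 17, 25366305 to 25369098), gave 60.4, 31.9 and 22.3 TPM in libraries labelled Tumor and 33.9, 61.7 and 49.3 TPM in those labelled WT. Cpa3, the exopeptidase carboxypeptidase A3 that is stored with the chymases (chromosome 3, 20215620 to 20242181), gave 28.1, 18.1 and 10.1 TPM in libraries labelled Tumor and 16.5, 27.2 and 20.7 TPM in those labelled WT. Both genes repeated the pattern of the chymases, with Tumor replicate 1 and WT replicate 2 high, Tumor replicate 3 low, and groups that overlapped. The summed TPM of the 4 proteases was 197, 117 and 76.2 in libraries labelled Tumor and 119, 225 and 153 in those labelled WT, a 2.95-fold span.

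Hdc, histidine decarboxylase, the enzyme that makes histamine (chromosome 2, 126593667 to 126619299), stood at 4.29, 3.50 and 1.17 TPM in libraries labelled Tumor and at 2.49, 7.41 and 4.04 TPM in those labelled WT. Its highest and lowest libraries were those of Mcpt4, over a wider 6.31-fold span, and the groups overlapped.

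The immunoglobulin E receptor of mast cells is built of an alpha chain that binds the antibody, a beta chain that amplifies the signal and gamma chains that are shared with other receptors. Fcer1a, the alpha chain (chromosome 1, 173221284 to 173227214), stood at 2.84, 0.953 and 1.70 TPM in libraries labelled Tumor and at 2.28, 2.94 and 3.05 TPM in those labelled WT. Tumor replicates 2 and 3 lay below every WT library, whereas Tumor replicate 1 lay among them. Ms4a2, the beta chain (chromosome 19, 11615523 to 11623719), stood at 0.693, 0.622 and 0.225 TPM in libraries labelled Tumor and at 0.700, 0.408 and 1.10 TPM in those labelled WT. It reached 1 TPM in 1 library only, so it did not pass the filter on low values and was not tested. The Ms4a2 level followed the proteases poorly, as WT replicate 2, highest in Mcpt4, was the second lowest in Ms4a2.

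Fcer1g, the gamma chain, which many myeloid cells use, was far more abundant, at 308, 199 and 199 TPM in libraries labelled Tumor and at 134, 157 and 102 TPM in those labelled WT. Every Tumor library was above every WT library, as for 15.0% of all tested genes in one direction or the other. The log2 difference was 0.83 (SE 0.26), with an unadjusted p of 0.0188 and an adjusted p of 0.737 from limma, and did not pass. Markers of macrophages, a cell type that uses this chain, summed to 1649 to 2796 TPM in libraries labelled Tumor and to 965 to 1437 TPM in those labelled WT. Most of this sum was 1 gene, Lyz2, at 733 to 2214 TPM over the libraries. Of the 6 markers 3 did not overlap, all higher in Tumor, and 2 had a negative difference (Mrc1 -0.14 and Cd163 -0.06). The part of macrophages in the Fcer1g values was not tested.

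Kit, the receptor tyrosine kinase for Kit ligand (chromosome 5, 75574916 to 75656722), stood apart from the other members. It stood at 6.61, 8.62 and 10.1 TPM in libraries labelled Tumor and at 9.83, 9.57 and 4.82 TPM in those labelled WT. Tumor replicate 3, lowest in all 4 proteases, was highest in Kit. The 2 libraries lowest in Kit, Tumor replicate 1 and WT replicate 3, were the 2 with least Cd79a, but the part of lymphoid tissue in the Kit level was not tested. Kit also marks melanocytes and blood progenitors, and of a list of 8 genes of these cells 7 were tested and 0 passed. The list summed to 81.1 to 266 TPM in libraries labelled Tumor and to 77.8 to 202 TPM in those labelled WT, most of it Cd34, which vessels and adipose stroma also express and which averaged 127 ± 107 TPM in Tumor and 110 ± 70.1 TPM in WT. Flt3, a receptor of blood progenitors and dendritic cells, stood at 1.81, 11.1 and 22.1 TPM in libraries labelled Tumor and at 11.7, 8.09 and 0.429 TPM in those labelled WT. Like Kit it was lowest in Tumor replicate 1 and WT replicate 3 and highest in Tumor replicate 3. Of the melanocyte genes Mlana reached 5.00 TPM and Dct 3.92 TPM. Pmel averaged 1.99 ± 0.694 TPM in Tumor and 1.02 ± 0.356 TPM in WT, and Tyrp1 1.48 ± 0.686 TPM in Tumor and 0.862 ± 0.412 TPM in WT (SD, n = 3 each). The part of these cells in the Kit level was not tested.

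**Figure D1:**
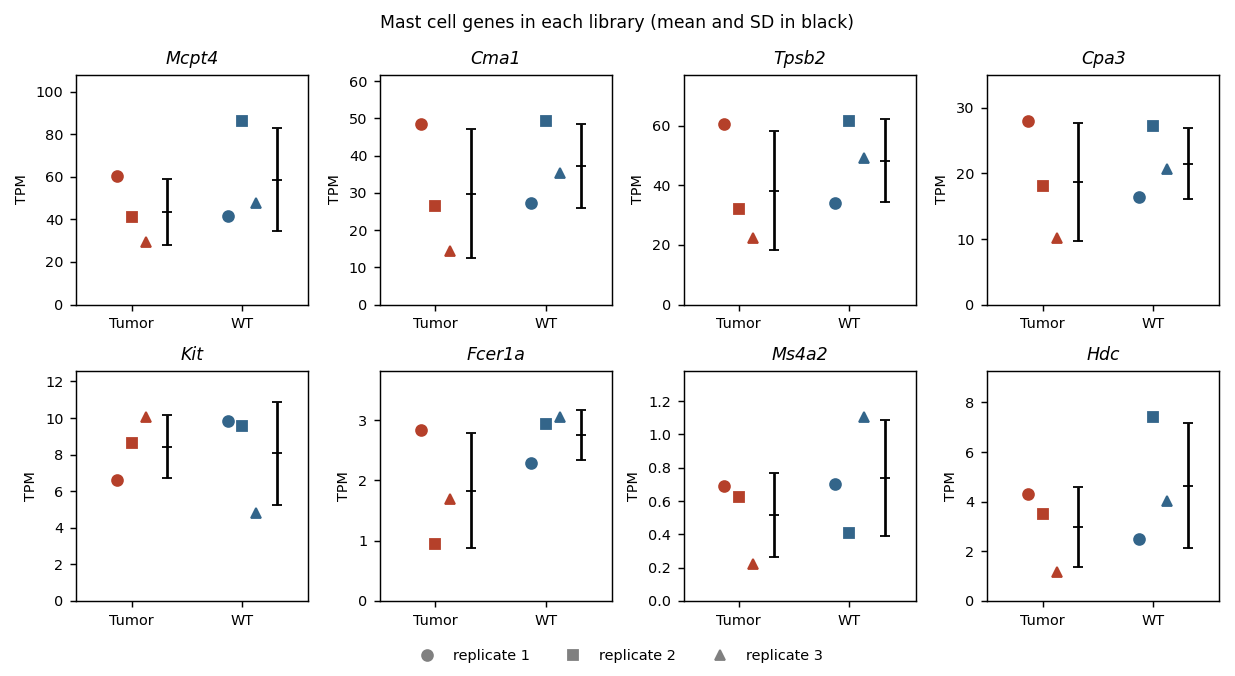
TPM of each of the 8 mast cell genes (y axis, linear, from 0) in the 3 libraries labelled Tumor (left, red) and the 3 labelled WT (right, blue), with marker shape for the replicate number and the mean ± SD in black. The groups overlap in every panel, and Tumor replicate 1 sits above the other Tumor libraries for all 4 proteases, at 60.2 TPM for Mcpt4.

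Levels in TPM are corrected for length and can be set side by side. By the mean of all 6 libraries the order was Mcpt4 (51.1 TPM), Tpsb2 (43.3), Cma1 (33.5), Cpa3 (20.1), Kit (8.25), Hdc (3.82), Fcer1a (2.29) and Ms4a2 (0.625). Mcpt4 exceeded Tpsb2 in 4 of 6 libraries and Hdc exceeded Fcer1a in 5 of 6, so these neighbours were not separated in every library. The other neighbours in the order kept it in all 6 libraries.

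Within each library Cma1, Tpsb2 and Cpa3 stood in nearly fixed proportions. The Cma1 to Cpa3 ratio ran from 1.42 to 1.82 over the 6 libraries, and Cma1 to Tpsb2 from 0.646 to 0.828. The log2 ratios of these pairs had SDs of 0.14 over libraries, against SDs of 0.67 for log2 Cma1 itself, 0.54 for Cpa3 and 0.58 for Tpsb2. For these pairs the level thus varied several times more than the make-up, and a ratio within a library does not depend on scaling between libraries. Mcpt4 was looser, with a ratio to Cma1 from 1.24 in Tumor replicate 1 to 2.04 in Tumor replicate 3. Its log2 ratios to Cma1, Tpsb2 and Cpa3 had SDs of 0.26, 0.22 and 0.22, against 0.53 for log2 Mcpt4 itself. The ratio of Mcpt4 to Kit ran from 2.92 to 9.90, an SD of 0.73 on the log2 scale.

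**Figure D2:**
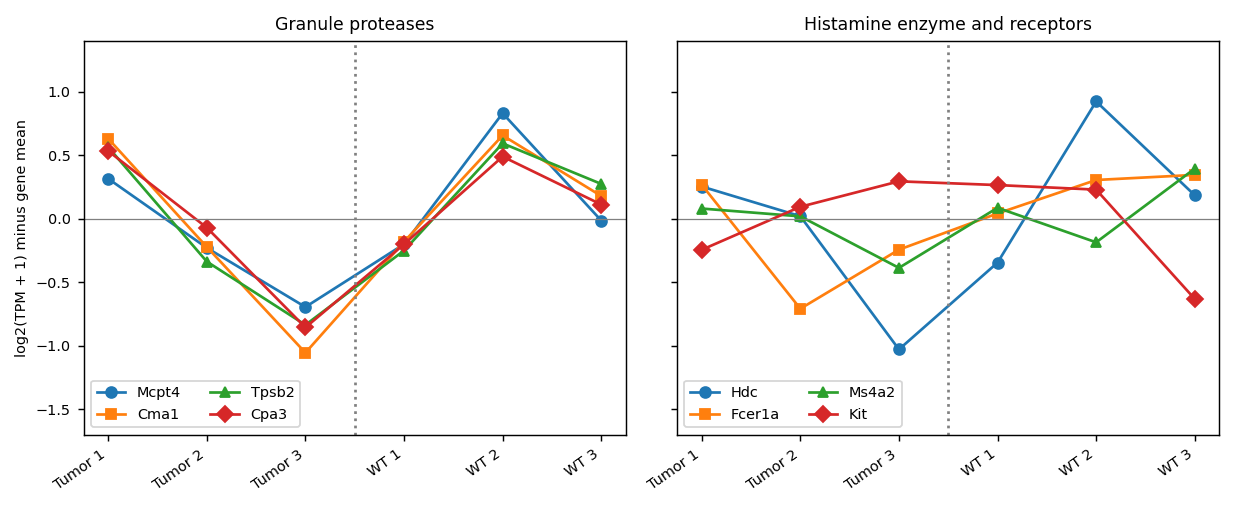
Centred log2(TPM + 1) of the 4 granule proteases (left panel) and of Hdc, Fcer1a, Ms4a2 and Kit (right panel) in each library, Tumor libraries left of the dotted line and WT libraries right of it; lines only join the points of 1 gene. The proteases lie close together in each library, from a mean of -0.86 in Tumor replicate 3 to 0.64 in WT replicate 2, while Kit runs another way.

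As a share of the summed TPM of the 8 genes, the 4 proteases took 93.2%, 89.6% and 85.3% in libraries labelled Tumor and 88.6%, 91.7% and 92.2% in those labelled WT. Mcpt4 took 30.9% ± 2.25 in Tumor and 31.7% ± 3.31 in WT, and Tpsb2 25.9% ± 2.28 in Tumor and 26.7% ± 2.60 in WT (SD, n = 3 each). Cma1 took 19.7% ± 3.42 in Tumor and 20.5% ± 0.607 in WT, and Cpa3 12.8% ± 1.32 in Tumor and 11.9% ± 0.737 in WT. For each protease the group means differed by less than the larger of its SDs. The share of Kit ran from 2.91% in WT replicate 3 to 11.3% in Tumor replicate 3, and that of Ms4a2 from 0.166% in WT replicate 2 to 0.666% in WT replicate 3.

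**Figure D3:**
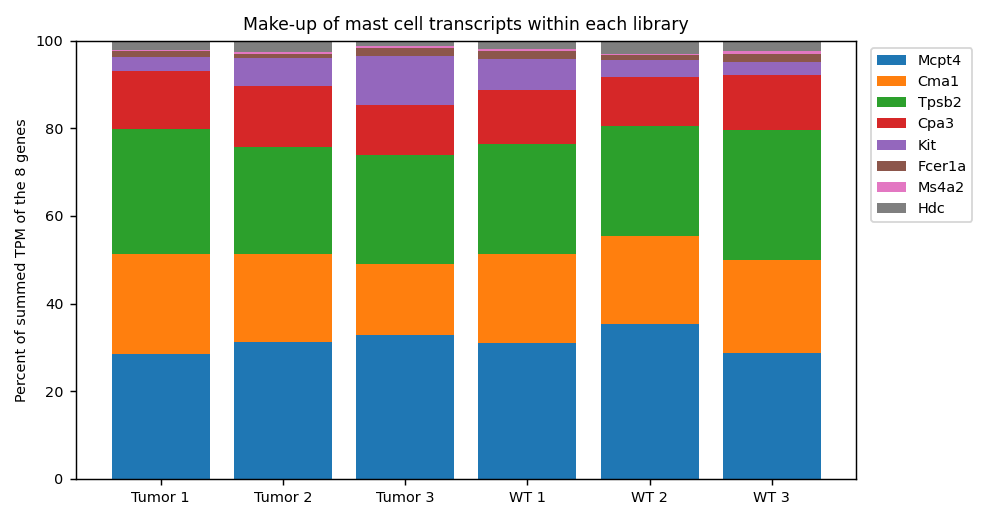
Each member as a percent of the summed TPM of the 8 genes (y axis) in each library, the 3 labelled Tumor on the left and the 3 labelled WT on the right. Mcpt4 holds 28.4% to 35.3% of the sum everywhere, and the band of Kit is widest in Tumor replicate 3, at 11.3%.

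None of the 8 genes differed between the groups by the test. The question put to the data was whether fat in libraries labelled Tumor held more or less mast cell transcript than fat in those labelled WT. Over all 14144 genes tested, limma on log2(TPM + 1) called 0 at an adjusted p below 0.05 (0.00%), and 771 genes (5.45%) had an unadjusted p below 0.05. Of the members 7 were tested, 0 of them passed and 0 had an unadjusted p below 0.05. The groups did not overlap for 0 of the 8 members, against 15.0% of all tested genes in either direction and 3.24% lower in Tumor.

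The differences that were not called are given with their intervals. Mcpt4 averaged 43.5 ± 15.6 TPM in libraries labelled Tumor and 58.7 ± 24.3 TPM in those labelled WT (SD, n = 3 each), a log2 difference of -0.41 with a 95% interval from -1.32 to 0.50 (limma adjusted p = 0.769). Cma1 averaged 29.8 ± 17.3 TPM in Tumor and 37.3 ± 11.2 TPM in WT, a log2 difference of -0.43 with an interval from -1.56 to 0.69. For Tpsb2 the averages were 38.2 ± 19.8 TPM in Tumor and 48.3 ± 13.9 TPM in WT (log2 difference -0.41), and for Cpa3 18.8 ± 9.00 TPM in Tumor and 21.5 ± 5.40 TPM in WT (-0.26). These intervals span both directions and cover more than a 2-fold change downward, so the data do not show that the groups are alike.

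Hdc averaged 2.99 ± 1.62 TPM in libraries labelled Tumor and 4.65 ± 2.52 TPM in those labelled WT (log2 difference -0.51, interval -1.68 to 0.67). Fcer1a had the smallest p of the members, with 1.83 ± 0.950 TPM in Tumor and 2.76 ± 0.416 TPM in WT (SD, n = 3 each), a log2 difference of -0.46. Its limma p was 0.200 before and 0.737 after adjustment. Kit averaged 8.43 ± 1.73 TPM in Tumor and 8.07 ± 2.82 TPM in WT, a log2 difference of 0.09 with an interval from -0.68 to 0.87, which was -0.10 with median-ratio factors. The median difference over the 8 members was -0.41 and that over all tested genes 0.23. Of the 8, 7 had a negative difference, but 5 of these (the 4 proteases and Hdc) had close profiles over the libraries and are not independent of each other. With median-ratio factors, which bring the median of all tested genes to 0.04, that of the members was -0.61 and all 8 were negative.

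**Figure D4:**
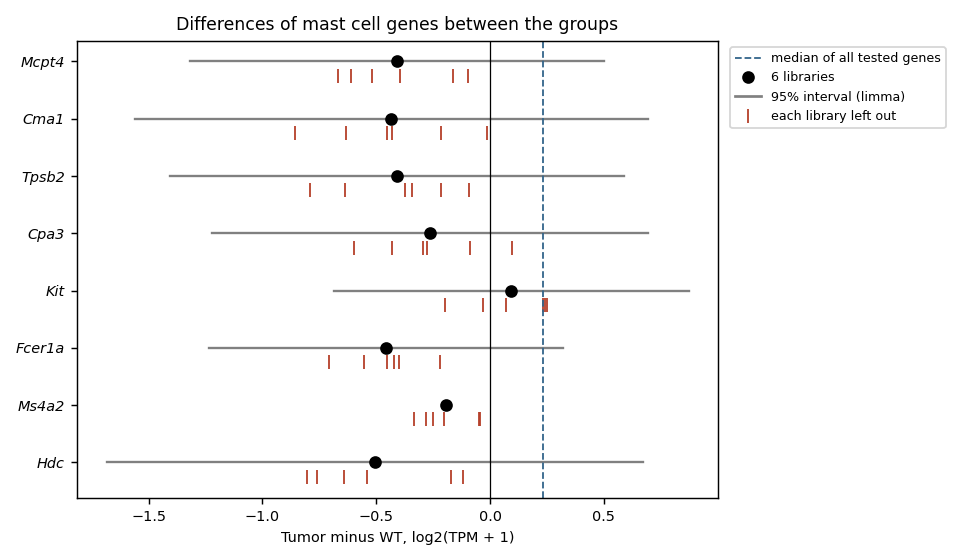
Tumor minus WT on the log2(TPM + 1) scale for each member (black point) with the 95% limma interval (grey; none for Ms4a2, which was not tested) and the same difference with each library left out in turn (red ticks); the dashed line is the median of all tested genes, 0.23. Every interval crosses 0, and the ticks of Cma1 run from -0.86 to -0.01.

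The size of the difference rested on single libraries. Without Tumor replicate 1 the median over the members was -0.69, and Mcpt4, Cma1, Tpsb2 and Fcer1a were then lower in every Tumor library than in every WT library, where 6.74% of all tested genes were and 41.1% did not overlap in one direction or the other. In the 4 libraries rich in Cd79a, which leave out Tumor replicate 1 and WT replicate 3, the median was -0.70 and 4 members did not overlap, against 7.91% of tested genes lower in this way and 48.8% in either direction. Without Tumor replicate 3 the median was -0.07, and without WT replicate 2 it was -0.19. In none of these fits did a member pass the test.

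The libraries also differed in transcripts of other tissues, which are given beside the proteases. B cell markers summed to 8.19, 1523 and 2236 TPM in libraries labelled Tumor and to 907, 708 and 4.09 TPM in those labelled WT. Markers of lymph node venules summed to 25.3, 1286 and 2697 TPM in Tumor and to 1585, 1971 and 8.45 TPM in WT. Skeletal muscle markers summed to 1550, 488 and 1971 TPM in Tumor and to 12.9, 2251 and 9.25 TPM in WT. WT replicate 2 and Tumor replicate 1, highest in protease transcripts, were thus unlike in B cell markers and both high in muscle markers, while Tumor replicate 3, lowest in proteases, was high in both. Adipocyte markers summed to 7392, 5424 and 1704 TPM in libraries labelled Tumor and to 3940, 4499 and 9002 TPM in those labelled WT, with Tumor replicate 3 lowest here too. Fibroblast markers were highest in Tumor replicate 1, at 6964 TPM, and summed to 862 to 2975 TPM in the other libraries. The part of these tissues in the protease level was not tested.

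**Figure D5:**
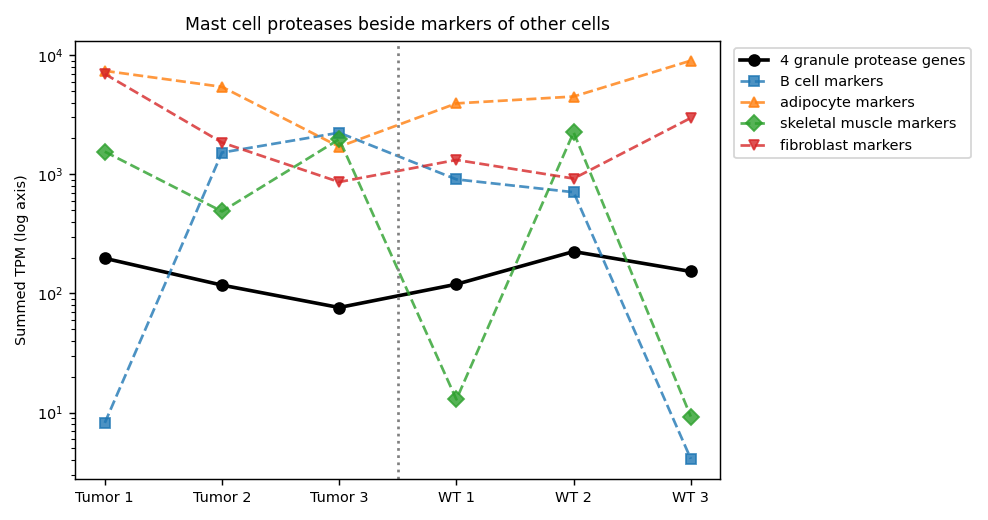
Summed TPM (log axis) of the 4 granule protease genes (black) and of marker lists for B cells, adipocytes, skeletal muscle and fibroblasts in each library, Tumor left of the dotted line and WT right of it. The proteases stay between 76.2 and 225 TPM, while B cell markers run from 4.09 to 2236 TPM.

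The neighbours of the chymases and tryptases separate the types of mast cell. Mcpt1, Mcpt2, Mcpt8 and Mcpt9 lie in the same locus on chromosome 14, and Mcpt1 and Mcpt2, the mucosal chymases, stayed at or below 0.208 and 0.492 TPM in every library. Mcpt9 was listed at 0 in all 6 libraries, and Mcpt8, a protease of basophils, in 5 of them, with 0.130 TPM in WT replicate 2. Ctsg, also in this locus, stood at 0, 0.738 and 0.745 TPM in libraries labelled Tumor and at 1.08, 4.08 and 0 TPM in those labelled WT. It reached 1 TPM in 2 libraries only and was not tested. Mcpt1 and Mcpt2 of mucosal mast cells and Mcpt8 of basophils were thus at or near 0. The abundant chymases, Mcpt4 and Cma1, were those of the connective tissue type. Among the other genes listed for basophils and eosinophils, Prss34 reached 0.429 TPM, and Il3ra ran from 23.1 to 38.2 TPM over the libraries. Tpsab1, the other tryptase gene, which neighbours Tpsb2 on chromosome 17, stood at 2.29, 0.429 and 1.64 TPM in libraries labelled Tumor and at 0.670, 1.75 and 0.464 TPM in those labelled WT, a small fraction of Tpsb2. Of 6 skin markers 4 stayed below 1 TPM in every library and Krt5 reached 1.02 TPM, whereas Krt10, a keratin of the upper epidermis, ran from 3.50 to 5.79 TPM in libraries labelled Tumor and from 4.42 to 7.50 TPM in those labelled WT.

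Close copies could share reads. Of the stretches of 31 bases in GENCODE M21 transcripts of each gene, 87.8% were found in no other gene for Mcpt4, with Cma2 the main partner at 10.2%, 89.4% for Cma1 and 99.4% for Tpsb2. Cma2 was at 0.444 TPM or less in every library, and the row that shares with Cma1, Gm48934, was listed at 0 throughout. For Cpa3, Kit and Fcer1a the share was 100%, and for Hdc 99.6%. For Ms4a2 it was 96.0%, with 3.76% shared with Ms4a4b, a lymphocyte gene that averaged 194 TPM in Tumor and 128 TPM in WT. Whether reads of Ms4a4b entered the low Ms4a2 values was not tested.

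Other genes of mast cells, chosen as a list beside the members, did not pass either. Among 13 further granule genes 5 were tested, 0 passed, and 1 had a negative and 4 a positive difference. Ndst2, an enzyme of heparin sulfation, averaged 27.5 ± 5.05 TPM in libraries labelled Tumor and 19.2 ± 2.62 TPM in those labelled WT (SD, n = 3 each), without overlap. Tpsg1, the transmembrane tryptase, averaged 0.584 ± 0.380 TPM in Tumor and 1.55 ± 0.229 TPM in WT, also without overlap. Their limma p of 0.0493 and 0.0461 became 0.737 after adjustment for both. The list also holds Srgn and Cd63, which many cell types express, so its sum does not track mast cells.

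Of 12 further receptors and transcription factors 9 were tested and 0 passed, with 5 negative and 4 positive differences. Mrgprb2, the receptor through which peptides and drugs degranulate connective tissue mast cells, stood at 1.90, 0.757 and 0.393 TPM in libraries labelled Tumor and at 1.02, 1.49 and 0.926 TPM in those labelled WT. Tumor replicate 1 was highest and Tumor replicate 3 lowest, much as for the proteases. Gata2 averaged 6.54 ± 3.73 TPM in Tumor and 8.26 ± 2.61 TPM in WT, and Mitf 6.25 ± 4.43 TPM in Tumor and 3.87 ± 1.64 TPM in WT (SD, n = 3 each). Il1rl1, the receptor for interleukin 33, averaged 2.52 ± 1.04 TPM in Tumor and 1.80 ± 0.836 TPM in WT.

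The factors that act on mast cells differed widely in level. Igf1, insulin-like growth factor 1, was highest of the 10 listed, at 208, 126 and 71.8 TPM in libraries labelled Tumor and at 119, 84.5 and 201 TPM in those labelled WT. Kitl, the ligand of Kit, stood at 17.3, 13.4 and 6.77 TPM in libraries labelled Tumor and at 9.00, 6.37 and 18.4 TPM in those labelled WT. The 2 libraries with most Kitl were the 2 with least Kit. Il33, an alarmin that activates mast cells, averaged 16.3 ± 6.41 TPM in Tumor and 11.0 ± 2.94 TPM in WT, and Tgfb1, a growth factor with broad effects on immune cells, 73.7 ± 28.7 TPM in Tumor and 48.0 ± 21.0 TPM in WT (SD, n = 3 each). Il3 and Il9, T cell cytokines that expand mast cells, were listed at 0 in all 6 libraries. Of these 10 genes 6 were tested and 0 passed.

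All 13 kinases, adaptors and chains of receptor signalling had a positive difference, with a median of 0.92 (11 of 13 and 0.71 with median-ratio factors), but 0 passed, and the list is not specific to mast cells. Lat2, an adaptor of B and mast cells, averaged 84.8 ± 28.2 TPM in libraries labelled Tumor and 30.7 ± 19.9 TPM in those labelled WT (SD, n = 3 each), without overlap. Its limma p was 0.0318 before and 0.737 after adjustment. The 7 B cell markers had a median difference of 0.97, and 0 of them passed. Tumor replicate 1, with B cell markers at 8.19 TPM, had the highest Fcer1g and held Lat2 at 52.6 TPM, just above WT replicate 1 at 50.7 TPM. Other genes of the list went the other way. Lat stood at 2.02 TPM and Ptpn6 at 33.6 TPM in Tumor replicate 1, and at 0.724 and 11.7 TPM in WT replicate 3. The libraries rich in Cd79a held at least 76.4 TPM of Lat and 110 TPM of Ptpn6. The part of B cells in the values of this list was not tested. Among 15 genes of histamine and lipid mediators 11 were tested and 0 passed. Hpgds, the prostaglandin D synthase of mast cells and some macrophages, averaged 10.9 ± 2.63 TPM in Tumor and 4.98 ± 1.93 TPM in WT, without overlap. Its limma p was 0.0218 before and 0.737 after adjustment. Ltc4s, leukotriene C4 synthase, averaged 100.1 ± 43.2 TPM in Tumor and 185 ± 76.9 TPM in WT with overlap. Of the 8 basophil and eosinophil genes 3 were tested and 0 passed, and Epx, which defines eosinophils, was at 0.0558 TPM or less. Prg2, another eosinophil granule gene, reached 6.17 TPM in Tumor replicate 2 and 6.96 TPM in WT replicate 2. Il5ra, the interleukin 5 receptor of eosinophils and some B cells, averaged 2.64 ± 2.05 TPM in Tumor and 0.929 ± 0.781 TPM in WT, and Il3ra, the interleukin 3 receptor chain, 31.5 ± 7.42 TPM in Tumor and 25.6 ± 2.09 TPM in WT (SD, n = 3 each).

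The genes most like the protease profile were sought among 10930 tested genes with a mean of at least 5 TPM, by the root mean square distance of centred log2(TPM + 1) values over the 6 libraries. The 5 closest were Fars2 (0.088), Kyat3 (0.14), Cracr2b (0.16), Slc44a3 (0.17) and Ano10 (0.17). Fars2, a mitochondrial tRNA synthetase, stood at 42.9, 25.9 and 17.5 TPM in libraries labelled Tumor and at 25.5, 42.7 and 30.3 TPM in those labelled WT. By the same measure Hdc lay at 0.20, with 13 genes closer, Mrgprb2 at 0.23 with 23 closer, Fcer1a at 0.39 with 773 closer, and Kit at 0.71 with 6484 closer. Other mast cell genes ranged from Gata2, at 0.35 with 490 closer, to Mitf, at 0.65 with 5370. Between them lay Ms4a2 at 0.47 with 1756 closer and Tpsab1 at 0.59 with 4040. Hdc, Mrgprb2, Fcer1a, Ms4a2 and Tpsab1 averaged less than 5 TPM, so they were ranked against genes of higher level. The log2(TPM + 1) scale shrinks the changes of such low genes, which alters their distance. With 6 libraries many unrelated genes can share a profile, so that likeness is a description of these values.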

How the data were processed

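The table that the authors deposited for the 6 libraries is named for counts yet holds TPM: its values have decimals and every column totals 1000000. GRCm38.p6 is the genome build per the submitters' processing notes. For the aligner and quantifier, the tool is not given in the sources used here. TPM keep no depth, so no counting interval is given, and a rise of one tissue's transcripts lowers all other shares.

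The 14144 genes that reached 1 TPM in 3 or more libraries were tested on log2(TPM + 1) using limma 3.58.1 (R 4.3.3), with group as the sole term, a mean-variance trend and robust moderation, and adjusted by Benjamini and Hochberg at 0.05, two-sided. Fold changes on this scale understate changes of low genes. The procedure was tested on simulated data. Noise there was drawn separately for each gene, without the division by Cd79a seen in these libraries. The simulated data therefore do not show how the test behaves under that division. Coordinates and transcripts are from GENCODE M21, promoter windows from RefSeq on GRCm38.p6. Summaries and figures used Python 3.11.15, pandas 2.3.3, numpy 2.4.6 and matplotlib 3.10.9.

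The members, gene lists and tests were chosen with earlier results of these data known. Named genes were the 8 members, the 2 tested genes with the smallest p from each other list (lists of B cells, lymph node venules, muscle, adipocytes, fibroblasts and macrophages are instead given as sums), a fixed set (Fcer1g, Tpsab1, Mcpt8, Mrgprb2, Gata2, Mitf, Kitl, Il33), Msra, Cd79a and the 5 genes nearest the protease profile. Genes named at or near 0, Srgn, Cd63, Cma2, Ctsg, Prss34, Gm48934, Ms4a4b, Igf1, Cd34, Flt3, Mlana, Dct, Prg2, Lat, Ptpn6, Lyz2, Mrc1, Cd163 and Gm11594 were chosen after their values were seen. Alternatives were other pseudocounts, filters, scaling factors and moderation, a replicate block, B cell, adipocyte and muscle covariates, the 4 libraries rich in Cd79a, and leaving out each library. The labels call the replicates biological but name no animals, so p-values measure the spread between these samples. Each library also carries a code whose meaning is not given. The codes fall into separate number ranges for Tumor and WT, so whatever they mark cannot be told apart from group.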

Additional observations from a re-analysis of the deposited data

How the results depend on the processing

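Over 19 alternatives 0 of the members tested passed in any fit. With at least 5 TPM asked in 3 libraries 5 members were tested, without a filter 8, and in the other fits 7. Of 152 member differences 142 kept their direction, and the smallest adjusted p was 0.431 (limma). The filters, the moderation settings and the replicate block cannot change a difference, so in those settings the direction was kept by construction. Over all genes the B cell covariate called 1 gene, Gm11594, and every other fit 0. The median over the members stayed negative in all 19, which was likewise fixed for the filters, the moderation settings and the block. Leaving out each library gave -0.69 to -0.071, the 4 libraries rich in Cd79a gave -0.70, and the other settings moved it by less than 0.244, the SD over libraries of the median log2(TPM + 1) of the members. Of these the adipocyte covariate gave -0.27, the muscle covariate -0.62 and median-ratio factors -0.61, against -0.41. The count of members without overlap lay between 0 and 4 in fits that left out 1 library, with the 4 found without Tumor replicate 1. There 41.1% of all tested genes did not overlap in either direction, against 15.0% with all 6 libraries. The count was 1 without WT replicate 1 and 1 without WT replicate 2, where 28.5% and 19.3% of tested genes did not overlap. Cpa3 turned to 0.10 without Tumor replicate 3, where its leave-one-out values ran from -0.60 to 0.10.

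Kit, near 0 throughout, turned to -0.10 with median-ratio factors, -0.083 with upper-quartile factors, -0.0014 with the B cell, -0.023 with the adipocyte and -0.11 with the muscle covariate, and -0.053 in the 4 libraries rich in Cd79a. Its leave-one-out values ran from -0.20 to 0.25. Ms4a2 turned to 0.044 with the muscle covariate. The causes of these turns were not tested.

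With the replicate number as a block 0 genes and 0 members passed, and 183 genes had an unadjusted p below 0.05. The deviations of same-numbered libraries had correlations across genes of -0.76, 0.20 and -0.84 for numbers 1, 2 and 3. Tumor replicate 1 and WT replicate 3, both low in Cd79a, correlated at 0.85. With that division in the same deviations, the check cannot decide whether the numbers pair the samples. With no counts, low genes such as Ms4a2 have an unknown counting error.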
